A study of Mus musculus with 10 samples.

Results

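The 5 mouse tektin genes, Tekt1 to Tekt5, were followed through spermatogenesis in mice with a germline knockout of Smarca5, the gene of the ATPase that drives ISWI chromatin remodelers. All 5 symbols stood in the gene lists of both single-cell samples, so the members were 5 of 32285 genes. Onset and peak were read across germ stages set by marker transcripts, and open chromatin was read from peaks within 5 kb of each gene. The single-cell data came from 2 whole-testis cKO samples (Smarca5 fl/delta; Ddx4-Cre+), in which Cre is driven from the germ cell gene Ddx4. Tubules had been washed to deplete Leydig cells. No wild-type single-cell sample was analysed here, so no genotype comparison of transcripts was made. ATAC-seq, which cuts accessible DNA, was done on 50000 sorted cells per library in 4 groups of 2 libraries. These were 4C-sorted cells (4C DNA content, described as pachytene or pachytene-like) of cKO, 4C-sorted cells of wild type C57BL6, cKIT+ cells of cKO and cKIT+ cells of wild type C57BL6. The labels of the cKIT+ libraries carry text of both sorts, and the line on library construction set the group. Separate animals are not stated for the replicates, and p values measure only the spread between these samples, which may be technical. Peak lists hold no transcript levels, so the sorted cells could not be checked against cell type markers.

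Tektins are coiled-coil proteins that form filaments inside the doublet microtubules of cilia and of the sperm tail. TEKT1 to TEKT4 form a bundle in the lumen of the A-tubule in motile cilia and in sperm, and TEKT5 is found in sperm. In mice, loss of Tekt2 disturbs sperm flagella and airway cilia, and loss of Tekt3 or of Tekt4 lowers sperm motility. Flagellar genes are widely transcribed before the tail is built, during late meiosis and in round spermatids. RFX transcription factors, which bind a palindromic DNA element called the X-box, control many ciliary genes.

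The regions around the 5 start sites are shown because the start peaks of the ATAC libraries described further on lie over them. The windows are RefSeq sequences of GRCm38.p6 (mm10), from 250 bases before to 50 bases after the first start listed for each gene, and all 5 genes were matched. Capitals mark each copy, on either strand, of GTTGCC or GTTGCT, the arms of the X-box. All motifs were chosen after the sequences had been seen.
Tekt1: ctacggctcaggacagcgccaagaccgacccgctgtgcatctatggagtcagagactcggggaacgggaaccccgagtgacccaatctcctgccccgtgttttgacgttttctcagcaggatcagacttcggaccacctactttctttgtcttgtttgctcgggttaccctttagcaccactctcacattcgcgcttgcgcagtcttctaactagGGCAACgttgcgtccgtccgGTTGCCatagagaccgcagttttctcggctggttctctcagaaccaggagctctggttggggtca
Tekt2: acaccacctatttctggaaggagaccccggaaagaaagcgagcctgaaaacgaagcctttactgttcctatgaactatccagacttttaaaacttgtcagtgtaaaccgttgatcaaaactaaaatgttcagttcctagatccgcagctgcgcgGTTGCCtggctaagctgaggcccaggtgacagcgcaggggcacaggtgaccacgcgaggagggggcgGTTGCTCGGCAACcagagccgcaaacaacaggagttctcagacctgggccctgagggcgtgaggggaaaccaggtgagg
Tekt3: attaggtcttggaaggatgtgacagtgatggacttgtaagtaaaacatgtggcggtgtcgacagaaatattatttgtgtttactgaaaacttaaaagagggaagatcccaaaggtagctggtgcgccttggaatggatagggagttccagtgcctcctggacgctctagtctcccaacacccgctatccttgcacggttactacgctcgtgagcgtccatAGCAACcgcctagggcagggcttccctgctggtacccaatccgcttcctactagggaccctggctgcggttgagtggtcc
Tekt4: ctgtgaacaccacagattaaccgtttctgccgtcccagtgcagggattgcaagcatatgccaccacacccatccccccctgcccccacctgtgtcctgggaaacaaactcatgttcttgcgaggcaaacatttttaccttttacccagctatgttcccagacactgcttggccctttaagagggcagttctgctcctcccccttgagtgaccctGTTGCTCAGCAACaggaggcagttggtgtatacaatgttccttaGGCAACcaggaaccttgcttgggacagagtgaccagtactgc
Tekt5: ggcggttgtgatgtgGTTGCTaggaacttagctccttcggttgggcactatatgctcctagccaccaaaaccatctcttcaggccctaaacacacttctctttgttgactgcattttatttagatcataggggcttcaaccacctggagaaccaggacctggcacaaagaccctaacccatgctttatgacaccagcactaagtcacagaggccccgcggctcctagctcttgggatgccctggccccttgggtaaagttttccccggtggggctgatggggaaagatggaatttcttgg
The Tekt1 window is chr11:72361833-72362132 on the minus strand, and the Tekt2 window is chr4:126325639-126325938 on the minus strand. The Tekt3 window is chr11:63061409-63061708 on the plus strand, and the Tekt4 window is chr17:25471340-25471639 on the plus strand. The Tekt5 window is chr16:10395406-10395705 on the minus strand.

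Each of the 5 windows shown held an X-box arm, against 25.3% of all 27025 RefSeq windows of the same length. Tekt2 and Tekt4 held 3 arms each, Tekt1 held 2, and Tekt3 and Tekt5 held 1 each. At least 2 arms stood in 4.31% of all windows. In Tekt2 and Tekt4 a pair of arms faced each other as GTTGCNNNGCAAC, an inverted pair that stood in 63 of the 27025 windows, or 0.233%. The pair begins 29 bases before the start in Tekt2 and 36 bases before it in Tekt4; each such pair contains arms of the count above. The arm of Tekt3 begins 30 bases before the start, and those of Tekt1 begin 35 and 15 bases before it. Tekt5 differed in position, with its arm 235 bases before the start. Other motifs were read on both strands in the same way. AACNG, the core of the MYB site, stood 3 times in Tekt1, 7 times in Tekt2, 3 times in Tekt3, 6 times in Tekt4 and 2 times in Tekt5, and in 80.4% of all windows. TGACG, an arm of the CRE site, stood once in Tekt1 and in no other window shown, against 21.0% of all windows. RefSeq lists a second start for Tekt1, whose window held 0 arms and 2 copies of TGACG. It lists 2 further starts for Tekt2, of which one window held the same 3 arms and the other held 0. A match is a description of letters and shows no binding.

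The samples gave 7392 cells in replicate 1 and 12885 in replicate 2, with medians of 3681 and 4328 unique molecular identifiers (UMIs, counted transcripts) per cell. Cells were placed in 8 germ stages by ranges of marker UMIs per 10000 UMIs, so the stage names are shorthand for ranges and not cell types found independently. The stages held 129 to 1464 cells in replicate 1 and 477 to 1621 in replicate 2. Levels are given as UMIs of a gene per 1000000 UMIs of a stage (CPM); 3′ UMIs tag transcripts at their end, so they are not divided by gene length. The markers that set a stage are high in it by construction and check nothing. The early pachytene range was less sure, with Ldhc at 2556 and 1312 CPM, against 6904 and 9371 CPM in pachytene cells. Piwil1, at 410.4 and 614 CPM there, is one of the markers that set the range and does not check it. It also held median mitochondrial shares of 3.64% and 4.71%. Only 27 barcodes were shared by the kept cells of both samples. Smarca5 itself was at 319 and 213 CPM in spermatogonia and at 7.85 and 4.65 CPM in round spermatids, but 3′ tags need not lie in the deleted part and do not check the knockout.

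All 5 tektins were higher in the germ stages than in the somatic classes (Leydig cells and macrophages), and none was lower; of all 20162 genes tested, 33.2% were higher and 21.8% lower. The fitted log2 change was 3.00 ± 0.24 for Tekt1, 2.39 ± 0.24 for Tekt2, 2.64 ± 0.29 for Tekt3, 2.19 ± 0.26 for Tekt4 and 2.59 ± 0.45 for Tekt5 (SE, edgeR quasi-likelihood test, 2 samples). Adjusted p lay between 1.5e-21 for Tekt1 and 2.5e-07 for Tekt5. In replicate 1 alone the change was 5.19 for Tekt2 and 5.01 for Tekt5, where both were at 0 of 88733 UMIs in macrophages, which allows up to 33.8 CPM, and Tekt5 was at 0 in Leydig cells too. These 2 values rest on zeros and are no bound. Macrophage sums held 0 to 12 UMIs of any tektin.

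Leydig cells, which build no flagellum, gave the background for the germ stages. They held 11.7 and 16.5 CPM of Tekt1, 16.4 and 16.5 CPM of Tekt2, 9.96 and 7.96 CPM of Tekt3 and 5.27 and 8.74 CPM of Tekt4. Tekt5 was at 0 of 1706879 UMIs in Leydig cells of replicate 1, which allows up to 1.76 CPM, and at 2.03 CPM in replicate 2. Sertoli cells of replicate 2 held 3.65 CPM of Tekt5 to 34.1 CPM of Tekt1. Prm1, a transcript of late spermatids, was read at 531 CPM in Leydig cells of replicate 1. In spermatogonia the 5 tektins were at 5.67 to 22.7 CPM in replicate 1 and 8.90 to 26.7 CPM in replicate 2. Barcodes of 10 to 100 UMIs in replicate 1 were taken as free RNA, and whether some hold cells or cell fragments was not tested. They read 203, 190.1, 117, 87.2 and 25.0 CPM of Tekt1 to Tekt5. The free share was estimated at 6.17% in Leydig cells to 25.9% in round spermatids. After the free share was subtracted from replicate 1, the spermatogonial level was 0 for Tekt1, Tekt2 and Tekt3, 2.13 CPM for Tekt4 and 2.48 CPM for Tekt5. The share was read from Leydig markers in germ stages and from protamine and transition protein transcripts in Leydig cells and macrophages. These 2 sets did not match: spermatogonia of replicate 1, with Prm1 at 559 CPM, were given 14.2%, against the 6.17% of Leydig cells. Subtracted levels depend on this choice, which was not tested.

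Tekt1 (chr11:72344717-72362442, minus strand) was the first tektin to appear. Over the 8 stages, from spermatogonia to late elongating spermatids, its level in replicate 1 was 17.0, 75.0, 80.0, 168, 325, 433, 214 and 75.7 CPM. In replicate 2 it was 21.9, 81.5, 76.0, 294, 509.6, 687, 293 and 79.8 CPM. Both samples rose in leptotene or zygotene cells and were highest in round spermatids, while the early pachytene range differed from the stage before it by -0.22 ± 0.29 (edgeR adjusted p = 0.60). Onset, the first stage at which both samples reached 10% of their own highest level, was leptotene or zygotene at 17.3% and 11.9%, against 3.93% and 3.19% in spermatogonia. The rise into leptotene or zygotene was 2.50 ± 0.34 on the log2 scale (edgeR adjusted p = 1.4e-09). Of these cells, 16.1% and 14.3% had a Tekt1 UMI, against 3.09% and 6.90% of Leydig cells, at median depths of 1900 and 1925 against 2445 and 4009 UMIs. With each cell thinned to 1000 UMIs the shares were 5.84% and 5.42%, against 1.26% and 1.85% of Leydig cells. Tekt1 then rose by 2.21 ± 0.29 at pachytene (edgeR adjusted p = 2.7e-10) and by 0.89 ± 0.26 at late pachytene to dividing (edgeR adjusted p = 0.0032). Without the sample as a block the change at late pachytene to dividing was 0.90 and missed the threshold (edgeR adjusted p = 0.089). The round spermatid level was 0.52 ± 0.26 above that stage (edgeR adjusted p = 0.083), so these 2 neighbours were not told apart.

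Tekt3 (chr11:63061659-63094960, plus strand) was next, with its onset in the early pachytene range at 22.1% and 11.2% of its highest level. Over the 8 stages its level was 15.6, 10.0, 61.3, 62.3, 246, 278, 133 and 25.1 CPM in replicate 1. In replicate 2 it was 10.3, 13.3, 42.5, 87.1, 271, 378, 151 and 17.1 CPM. The first 2 stages lay near the Leydig level in both samples, and the highest values stood in round spermatids. The rise into the early pachytene range was 1.88 ± 0.35 on the log2 scale (edgeR adjusted p = 3.7e-06), and the rise into late pachytene to dividing 1.82 ± 0.27 (edgeR adjusted p = 2.3e-08). The change between them, at pachytene, was 1.25 ± 0.31 (edgeR adjusted p = 0.00037). This change missed the threshold in a fit scaled by library size only (log2 0.65, edgeR adjusted p = 0.054) and in the DESeq2 Wald test (log2 0.73, adjusted p = 0.061). Round spermatids exceeded late pachytene to dividing cells by 0.44 ± 0.26 (edgeR adjusted p = 0.16), which did not pass.

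Tekt2 (chr4:126322121-126325688, minus strand) was the most abundant tektin in round spermatids. Over the 8 stages its level was 22.7, 20.6, 66.6, 73.5, 214, 688, 420.1 and 59.9 CPM in replicate 1. In replicate 2 it was 26.7, 24.1, 32.9, 99.6, 237, 925, 511 and 64.5 CPM. Its onset fell at pachytene, at 10.7% and 10.8% of the highest level, but the early pachytene range of replicate 1 already stood at 9.69%, just under the 10% line, while replicate 2 stood at 3.56%. After subtraction of free RNA replicate 1 stood at 7.20% at pachytene, so that onset fell at late pachytene to dividing. The change into the early pachytene range was 0.78 ± 0.34 (edgeR adjusted p = 0.063) and was called with DESeq2 size factors (log2 1.17, edgeR adjusted p = 0.0041). Tekt2 rose by 1.66 ± 0.31 at pachytene (edgeR adjusted p = 5.3e-06), by 1.40 ± 0.27 at late pachytene to dividing (edgeR adjusted p = 6.7e-06) and by 1.93 ± 0.27 in round spermatids (edgeR adjusted p = 5.7e-10). Among the tektins, Tekt2 had the widest reach in round spermatids, with a UMI in 86.6% and 95.3% of cells, or 47.1% and 58.1% with cells thinned to 1000 UMIs.

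Tekt4 (chr17:25454549-25476602, plus strand) rose late and steeply. Over the 8 stages its level was 14.2, 11.6, 21.3, 27.9, 191, 342, 169 and 26.7 CPM in replicate 1. In replicate 2 it was 14.4, 15.3, 15.5, 39.4, 262, 518, 234 and 27.1 CPM. Onset was late pachytene to dividing, at 55.9% and 50.6% of the highest level, against 8.15% and 7.61% in pachytene cells. The rise into that stage was 2.77 ± 0.28 (edgeR adjusted p = 2.1e-14), above the 0.89, 1.40 and 1.82 of Tekt1, Tekt2 and Tekt3 at the same step; the differences between genes were not tested. Tekt4 had risen by 1.69 ± 0.35 at pachytene (edgeR adjusted p = 2.8e-05) and rose by 1.01 ± 0.26 in round spermatids (edgeR adjusted p = 0.00057).

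Tekt5 (chr16:10357952-10395455, minus strand) was the last to appear, and its highest level was the lowest of the 5. Over the 8 stages its level was 5.67, 4.22, 2.67, 6.25, 5.57, 28.1, 100.0 and 70.2 CPM in replicate 1. In replicate 2 it was 8.90, 4.19, 7.90, 3.99, 4.83, 42.8, 158 and 102 CPM. It stayed low through all stages of meiosis, appeared in round spermatids and was highest in early elongating spermatids in both samples. In late elongating spermatids it stood above Tekt2, Tekt3 and Tekt4 in both samples, and in replicate 2 also above Tekt1. The rise into round spermatids was 2.88 ± 0.34 (edgeR adjusted p = 1.3e-12), and the rise into early elongating spermatids 2.05 ± 0.31 (edgeR adjusted p = 1.8e-08). The late elongating stage differed from the early one by -0.08 ± 0.30 (edgeR adjusted p = 0.90). That value depended on where the protamine ranges were set: it was -1.95 with the cuts doubled (edgeR adjusted p = 3.0e-05) and 0.58 with the cuts halved (edgeR adjusted p = 0.051). A Tekt5 UMI stood in 39.4% and 65.0% of early elongating spermatids and in 14.7% and 26.6% of round spermatids, or in 8.86% and 14.1%, against 2.77% and 3.79%, with cells thinned to 1000 UMIs.

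**Figure D1:**
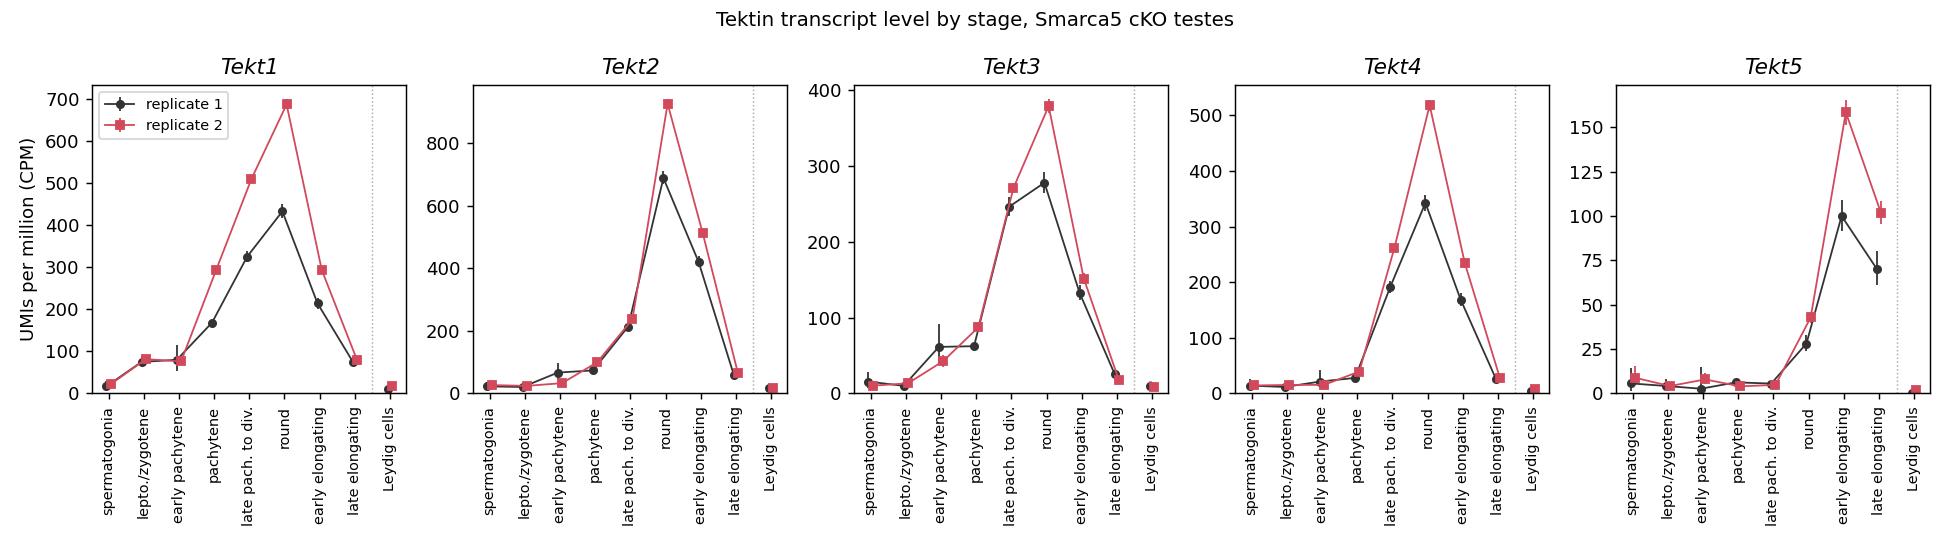
Level of each tektin (CPM, linear axis, a separate scale for each gene) across 8 germ stages in order and in Leydig cells, with circles for replicate 1, squares for replicate 2 and bars for exact 95% Poisson intervals, which cover counting error only. Tekt1 to Tekt4 peak in round spermatids, with Tekt2 highest at 688 and 925 CPM, while Tekt5 peaks at 100.0 and 158 CPM in early elongating spermatids.

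Onsets ran in the order Tekt1, Tekt3, Tekt2, Tekt4 and Tekt5, and the peaks fell in round spermatids for Tekt1 to Tekt4 and in early elongating spermatids for Tekt5. Tekt2 and Tekt3 stood close together, since in replicate 1 the early pachytene range stood at 9.69% for Tekt2, against the line of 10%. With free RNA subtracted from replicate 1, Tekt2 moved the other way: at pachytene it stood at 7.20% of its highest level and at late pachytene to dividing at 25.1%, the onset stage of Tekt4, while Tekt3 stood at 16.3% in the early pachytene range. Tekt3 also came before Tekt2 only through the early pachytene range, which was less sure. With that range left out both onsets fell at pachytene, where Tekt3 stood at 22.4% and 23.0% and Tekt2 at 10.7% and 10.8%. The place of Tekt2 between Tekt3 and Tekt4 is therefore not firm. The make-up of the tektin pool differed between stages. Tekt1 held 61.7% and 58.9% of all tektin UMIs in leptotene or zygotene cells. Tekt5 held 0.567% and 0.376% of tektin UMIs at late pachytene to dividing, 1.59% and 1.68% in round spermatids, 9.66% and 11.8% in early elongating spermatids, and 27.3% and 35.0% in late elongating spermatids. The summed tektin level peaked in round spermatids at 1769 and 2551 CPM.

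**Figure D2:**
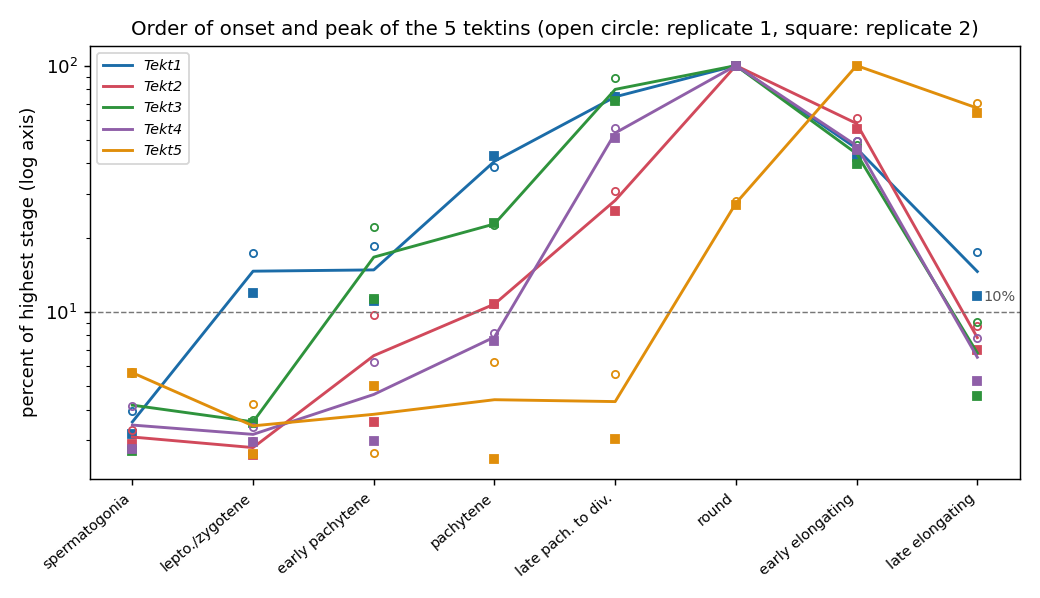
Level of each tektin as a percent of its own highest stage (log axis) across the 8 germ stages, with a line for the mean of both samples, open circles for replicate 1, filled squares for replicate 2 and a dashed line at 10%. Tekt1 crosses 10% at leptotene or zygotene and Tekt5 at round spermatids, where it stands at 28.1% and 27.0%.

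The steps differed in how many tektins moved. Into leptotene or zygotene 1 of 5 rose (Tekt1), where 19.4% of genes were called higher and 12.7% lower. Into the early pachytene range 1 of 5 rose (Tekt3), where 17.8% were called higher and 17.9% lower. At pachytene 4 of 5 rose, all but Tekt5, where 18.8% were called higher and 21.7% lower. At late pachytene to dividing the same 4 rose, where 18.2% were called higher and 22.3% lower. In round spermatids 3 of 5 rose (Tekt2, Tekt4 and Tekt5), where 28.8% were called higher and 22.2% lower. With DESeq2 size factors all 5 rose at that step. No tektin was called lower at any step up to round spermatids.

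After round spermatids the directions parted. In early elongating spermatids Tekt5 rose while Tekt1, Tekt3 and Tekt4 fell by 0.93 ± 0.26, 1.01 ± 0.27 and 0.89 ± 0.26 on the log2 scale (edgeR adjusted p = 0.0023, 0.0014 and 0.0044). Tekt2 changed by -0.59 ± 0.26, which missed the threshold (edgeR adjusted p = 0.070) and was called in 5 of the alternative fits. At that step 19.9% of genes were called higher and 13.2% lower. Without the sample as a block only 1 tektin, Tekt3, was called lower there, with edgeR adjusted p = 0.085 for both Tekt1 and Tekt4. In late elongating spermatids 4 of 5 fell, with log2 changes of -1.19 ± 0.26 for Tekt1, -2.40 ± 0.28 for Tekt2, -2.28 ± 0.29 for Tekt3 and -2.40 ± 0.29 for Tekt4, where 7.66% were called higher and 9.96% lower. The edgeR adjusted p of these falls lay between 1.5e-11 for Tekt2 and 0.00030 for Tekt1. A stage share can fall because other transcripts rise: protamine transcripts are part of the total, and their part in these falls was not tested.

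**Figure D3:**
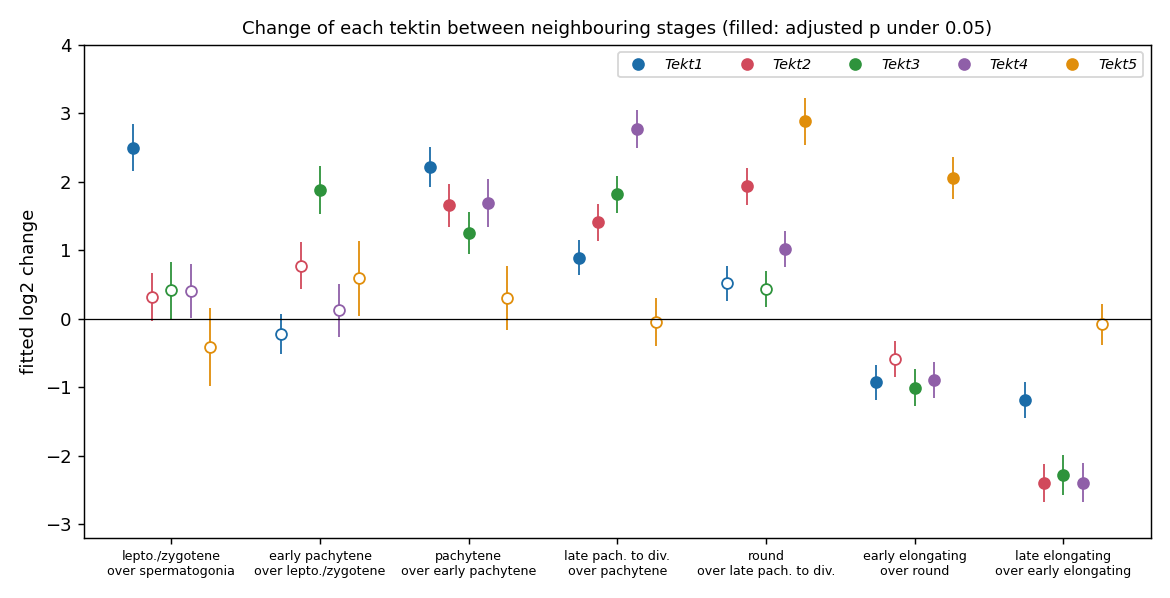
Fitted log2 change of each tektin at each step from a stage to the next, with bars for the SE, filled points for edgeR adjusted p under 0.05 and open points for the others. The rises of Tekt1 to Tekt4 at pachytene and at late pachytene to dividing are followed by falls of all 4 in late elongating spermatids, while Tekt5 rises by 2.05 in early elongating spermatids.

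The changes at pachytene rest in part on library scaling. With TMM scaling the median change of all genes at that step was -0.29, against -0.73 with DESeq2 size factors and -0.90 with library size only. Relative to that median Tekt1 changed by 2.50, Tekt2 by 1.94, Tekt3 by 1.54 and Tekt4 by 1.98 with TMM. Over all steps between germ stages, a tektin's change relative to the median of all genes moved by up to 0.09 between the 3 scalings. Scaling shifts all genes of a step by nearly the same amount, so this small move is nearly fixed by construction and checks nothing. In replicate 1 the Tekt2 level at pachytene was 73.5 CPM, against 66.6 CPM in the early pachytene range, while its scaled log2 change in that sample was 1.00. Set directly over leptotene or zygotene, with the early pachytene range left out, pachytene cells were higher by 2.00 ± 0.24 for Tekt1, 2.45 ± 0.26 for Tekt2, 3.14 ± 0.28 for Tekt3 and 1.83 ± 0.28 for Tekt4. These 4 were called, where 23.7% of genes were called higher, and Tekt5 was not (log2 0.88 ± 0.43, edgeR adjusted p = 0.079). This comparison was added after the data had been seen.

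Tekt2 and Tekt4 were the most alike of the tektins. Over the 16 germ stage sums the Pearson correlation of log2(CPM + 1) was 0.97 between them, 0.86 to 0.92 among the other pairs of Tekt1 to Tekt4, and 0.21 to 0.53 between Tekt5 and the others. These values describe sums that share 2 suspensions and have no test. Among the 7526 other genes compared, Tekt2 and Tekt4 also shared their 3 most similar genes, Gtsf2 (0.98 with both), Tex21 (0.97 with Tekt2 and 0.96 with Tekt4) and 1700028P14Rik (0.97 and 0.96). Ankrd7 and Gm128 completed the list of Tekt2, and Dyrk3 and Cir1 that of Tekt4. The genes most like Tekt1 were Hoxd8, Gorasp2, Myl10, 1700012B09Rik and Sugt1 (0.96 to 0.97), and those most like Tekt3 were Hook2, Zswim2, Glipr1l1, Ubl7 and Dyrk3 (all 0.96). The genes most like Tekt5 were Gm15412, Ak1, 1700056E22Rik, Gm49796 and 1700065J18Rik (all 0.98). Tekt5 had the most company, with 566 genes above 0.9, against 138 for Tekt1, 44 for Tekt2, 80 for Tekt3 and 50 for Tekt4.

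Tektins sit beside other proteins inside the doublet microtubule, and 27 genes of such microtubule inner proteins were tested. At the germ over somatic contrast 26 of the 27 were higher and none was lower, with a median log2 change of 2.51, against 2.59 for the tektins and 0.97 for all genes. Between germ stages, 14 rose and 1 fell into leptotene or zygotene, 10 rose and 3 fell into the early pachytene range, and 13 rose and 1 fell at pachytene. At late pachytene to dividing 12 rose and none fell, and in round spermatids 14 rose and 1 fell. The counts depended on scaling: at late pachytene to dividing 22 rose with DESeq2 size factors and 21 in the DESeq2 Wald test, and at pachytene 9 rose and 8 fell with library size only. The median change of the 27 at late pachytene to dividing was 0.53, against 1.40 for the tektins and -0.07 for all genes. In early elongating spermatids 7 rose and 13 fell, and in late elongating spermatids 3 rose and 17 fell, with medians of -0.60 and -0.89, against -0.89 and -2.28 for the tektins and 0.03 and -0.10 for all genes. The shares of all genes called at each step are those given with the tektin counts.

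These genes moved in both directions, as the tektins did, in early elongating spermatids, which ties with the late elongating stage as the step with most of the 27 called. The 7 that rose, as Tekt5 did, were led by Tex37, a protein of the sperm doublet microtubule. Tex37 was at 390.0 and 566 CPM in early elongating spermatids, against 36.8 and 47.2 CPM in round spermatids (log2 3.70 ± 0.30). Saxo1, a microtubule stabiliser, was at 226 and 232 CPM in early elongating spermatids, against 41.9 and 38.8 CPM in round spermatids (log2 2.71 ± 0.30). Spaca9, an inner protein of sperm and cilia, was at 1471 and 2066 CPM, against 361 and 465 CPM in round spermatids (log2 2.29 ± 0.25). Dusp21 changed by 2.59, Fam166a by 1.31, Efhc2 by 0.85 and Tex43 by 0.69. Among those that fell, Cfap52, a protein at the junction of the A and B tubules, was at 38.3 and 24.2 CPM, against 185 and 145 CPM in round spermatids (log2 -2.24 ± 0.29). 1700007K13Rik and Cfap161, both of inner proteins, changed by -1.97 and -1.91.

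Open chromatin at the tektin starts was broad across groups. Tekt1, Tekt2, Tekt3 and Tekt4 had a peak within their start windows in all 8 libraries, as had 50.3% of 17491 genes. A start peak in all 4 4C-sorted libraries was seen for 56.2% of genes and in all 4 cKIT+ libraries for 53.8%. No tektin had a start peak in all 4 4C-sorted libraries and no cKIT+ library, a pattern of 0.869% of genes, or the reverse, a pattern of 0.72%. Tekt5 had one in 6 of 8, without 4C-sorted cKO replicate 1 and cKIT+ cKO replicate 2. In those 2 libraries a peak lay just inside the gene, and the merged region chr16:10394811-10395510, whose centre is 294 bases into the gene, held a peak in all 8. The arms of the X-box near the starts of Tekt1, Tekt2, Tekt3 and Tekt4 lay under peaks in all 8 libraries. The outer Tekt2 arm, 96 bases before the start, lay under a peak in the 4 4C-sorted libraries and in no cKIT+ library. This split turns on a few bases at a peak edge. The arm spans chr4:126325779-126325784, and the peak of 4C-sorted cKO replicate 1 ends at 126325784 and that of cKIT+ cKO replicate 1 at 126325778. The share of such splits over all genes was not computed. The Tekt5 arm lay under no peak in any library. Whether a peak covers a base depends on peak length, which was not tested.

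The peak lists differed in length, with 54059 and 57788 peaks in 4C-sorted cKO and 55756 and 59417 in 4C-sorted wild type. They held 127222 and 121802 peaks in cKIT+ cKO, and 44697 and 112518 in cKIT+ wild type, whose replicate 1 was short. Read depth per library is unknown. The fold of a peak is the authors' enrichment over local background within a library, and is compared here only within its own list.

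Within their own lists the start peaks of Tekt3 ranked highest by median over the 8 libraries. The Tekt3 fold was 7.78 and 9.43 in 4C-sorted cKO, 8.33 and 8.47 in 4C-sorted wild type, 6.43 and 7.38 in cKIT+ cKO, and 4.90 and 5.52 in cKIT+ wild type. These folds exceeded those of 74.9% to 98.9% of the peaks of their lists, with a median of 88.7%. The Tekt1 fold was 6.02 and 6.30 in 4C-sorted cKO, 7.30 and 6.65 in 4C-sorted wild type, 6.14 and 6.29 in cKIT+ cKO, and 4.32 and 3.97 in cKIT+ wild type, above 44.0% to 91.2% of their lists. The Tekt4 fold was 4.83 and 4.83 in 4C-sorted cKO, 5.15 and 5.28 in 4C-sorted wild type, 8.46 and 9.40 in cKIT+ cKO, and 3.48 and 6.09 in cKIT+ wild type. These stood above 32.4% to 92.4% of their lists. The Tekt4 start held a peak in all 4 cKIT+ libraries, while its transcript reached onset at late pachytene to dividing in the single-cell samples. This was not particular to Tekt4: Tekt1, Tekt2 and Tekt3 also had a start peak in all 4 cKIT+ libraries, as had 53.8% of genes, and their onsets also came after spermatogonia. The Tekt2 fold lay between 3.66 and 5.14 in the 8 libraries, above a median of 58.8% of a list. The Tekt5 fold lay between 3.30 and 4.46 in the 6 libraries with a peak, above a median of 47.6%.

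**Figure D4:**
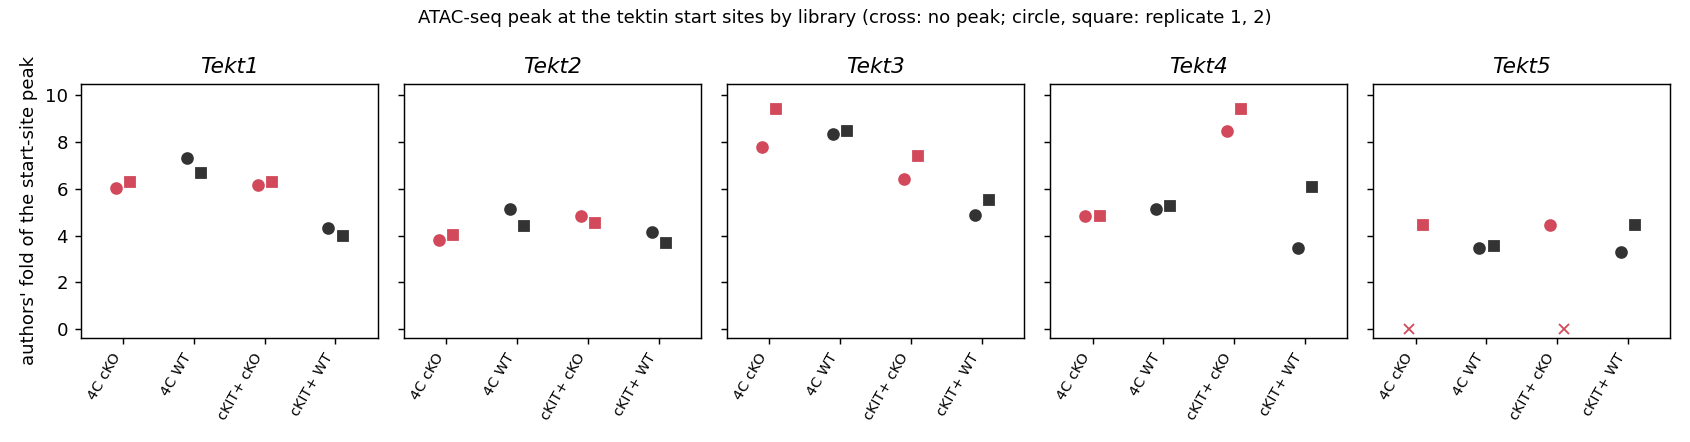
Authors' fold of the start peak of each tektin in the 8 ATAC libraries, with circles for replicate 1, squares for replicate 2, red for cKO, black for wild type and a cross at 0 where a list has no start peak. Tekt1 to Tekt4 have a value in all 8 libraries, and Tekt5 has a cross in 4C-sorted cKO replicate 1 and in cKIT+ cKO replicate 2.

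Bases covered by peaks within 5 kb of each gene were compared between cKO and wild type. In cKIT+ cells, Tekt1 had 1606 and 1184 covered bases in cKO, against 798 and 1029 in wild type. Tekt2 had 1439 and 1523 in cKIT+ cKO, against 949 and 1296 in cKIT+ wild type. Tekt3 had 1370 and 993 in cKIT+ cKO, against 241 and 844 in cKIT+ wild type. In all of these the cKO libraries lay above both wild-type libraries, as they did for 29.8% of 19318 genes, with 1.88% the other way. With lists cut to equal length the difference was 820 bases at Tekt1 and 574.5 at Tekt2 but turned at Tekt3, to -80 bases, and in the start windows alone that of Tekt2 was -0.5 bases. The differences with full lists and windows were 481.5, 358.5 and 639 bases, each with an exact permutation p of 0.333, the smallest that 2 libraries against 2 allow (two-sided). Tekt4 had 2565 and 2541 in cKIT+ cKO, against 298 and 3293 in cKIT+ wild type, and Tekt5 2998 and 2363 in cKIT+ cKO, against 721 and 2583 in cKIT+ wild type. For these 2 genes the groups overlapped, and exact permutation p was 1 for Tekt4 and 0.667 for Tekt5. Wild-type replicate 1, the short list, was the lowest library for all 5 genes. Without it the Tekt4 difference changed sign, to -740 bases, and the Tekt5 difference was 97.5 bases, against 1028.5 with it.

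In 4C-sorted cells the genotypes did not overlap at 1 of 5 genes, Tekt4, with full lists and 5 kb. Tekt4 had 1061 and 1165 covered bases in 4C-sorted cKO, against 1860 and 1227 in 4C-sorted wild type, a difference of -430.5 bases (exact permutation p = 0.333). With lists cut to equal length Tekt4 had 1061 and 1165 in 4C-sorted cKO, against 1576 and 1103 in 4C-sorted wild type, so the groups overlapped (difference -226.5, exact permutation p = 0.667). Without wild type replicate 1 the Tekt4 difference was -114 bases and without wild type replicate 2 it was -747. Non-overlap in that direction was seen in 15.8% of genes, and in the other in 21.5%. The Tekt4 non-overlap with full lists and 5 kb rests on a region in the gene body, chr17:25456394-25457187. It held a peak in both 4C-sorted wild-type libraries and in no other library. The peaks lay at -15196 to -14700 bases from the start in replicate 1 and at -14883 to -14403 in replicate 2. Without these bases wild type replicate 2 would lie below both cKO libraries. With −log10 q of at least 5, which drops this region among others, the difference was -204.5 bases (exact permutation p = 0.333). Tekt1 had 1305 and 1106 in 4C-sorted cKO, against 1505 and 965 in 4C-sorted wild type. Tekt2 had 1184 and 1394 in 4C-sorted cKO, against 1139 and 1212 in 4C-sorted wild type. Tekt3 had 867 and 503 in 4C-sorted cKO, against 546 and 883 in 4C-sorted wild type. Tekt5 had 2596 and 2447 in 4C-sorted cKO, against 3782 and 2514 in 4C-sorted wild type. At these 4 genes the groups overlapped, and exact permutation p lay between 0.667 and 1. Without wild type replicate 1 the difference turned positive at Tekt1 (240.5 bases) and at Tekt5 (7.5 bases). Without cKO replicate 2 it was 70 bases at Tekt1 and 152.5 at Tekt3, and without wild type replicate 2 it was 139 at Tekt3. The genes without overlap changed with the setting. At 1 kb they were Tekt1 (-86 bases), Tekt3 (-78.5) and Tekt4 (-606), and at 10 kb Tekt2 (344.5) and Tekt4 (-738.5). In start windows only Tekt1 (-110) was without overlap, and with equal lists only Tekt3 (-296.5). With −log10 q of at least 5 they were Tekt3 (-142.5), Tekt4 and Tekt5 (-434.5). Shares over all genes were not computed for these settings.

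Between the sorts, over both genotypes, 4C-sorted and cKIT+ libraries overlapped at all 5 genes with full lists and 5 kb. The differences were 66 bases for Tekt1, -69.5 for Tekt2, -162.25 for Tekt3, -846 for Tekt4 and 668.5 for Tekt5, with exact permutation p between 0.314 and 0.771, where 4 libraries against 4 allow 0.0286. Two-sided tests were used, and with full lists and 5 kb 5.29% of genes were higher and 6.86% lower in all 4C-sorted libraries. With lists cut to equal length the Tekt5 difference was 1836 bases (exact permutation p = 0.0286), the smallest p allowed, and the Tekt4 difference changed sign, to 153.5 bases. The Tekt3 difference turned to 200.75 bases with equal lists and to 107.75 bases in the start windows, where the sorts did not overlap (exact permutation p = 0.0286, the smallest this design allows). At no other tektin or setting did this comparison reach that p, and p values were not adjusted for the genes and settings tried. No share over all genes was computed with equal lists or start windows.

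The 5 genes had 33 merged peak regions in all, of which 8 held a peak in all 8 libraries and 7 in 1 library. Outside the start, 13 regions were seen in cKIT+ libraries only and 6 in 4C-sorted libraries only. The share of such regions around all genes was not computed, so these counts are not shown to be particular to the tektins. Of those in cKIT+ libraries only, 8 were in 3 libraries each, both cKIT+ cKO and cKIT+ wild type replicate 2. Of these, 5 lay at Tekt4, all upstream of the listed start, which itself lies inside the annotated gene span, and chr17:25452289-25452562 had the highest fold among them, between 6.54 and 6.85. A further 1 lay in the Tekt3 body at chr11:63090367-63091465, where the lncRNA gene Gm36926 overlaps, and 2 lay in the Tekt5 body. All lists but that of wild type replicate 1 are longer in cKIT+ than in 4C-sorted cells, and the part of list length in these regions was not tested.

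Regions seen in all libraries beside the starts lay in Tekt1, Tekt2 and Tekt5. The Tekt1 region chr11:72354895-72355537 is in the gene body. The Tekt2 region chr4:126320979-126322053 lies beyond the end of Tekt2 and reaches into the neighbouring gene Adprhl2, annotated up to position 126321703. The Tekt5 region chr16:10357811-10358512 covers the gene end, and its fold reached 10.8. Another Tekt5 region, chr16:10398943-10399449, centred at -3741 bases from the start, held a peak in all 4C-sorted and both cKIT+ cKO libraries and in no cKIT+ wild-type library. This split was picked out after the data had been seen, and its share over all regions was not computed. The list of cKIT+ wild type replicate 1 was the short one, with 44697 peaks, and an effect of genotype at this region was not tested. The Tekt1 start region overlaps the lncRNA gene Gm34317, so its peak cannot be given to Tekt1 alone.

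**Figure D5:**
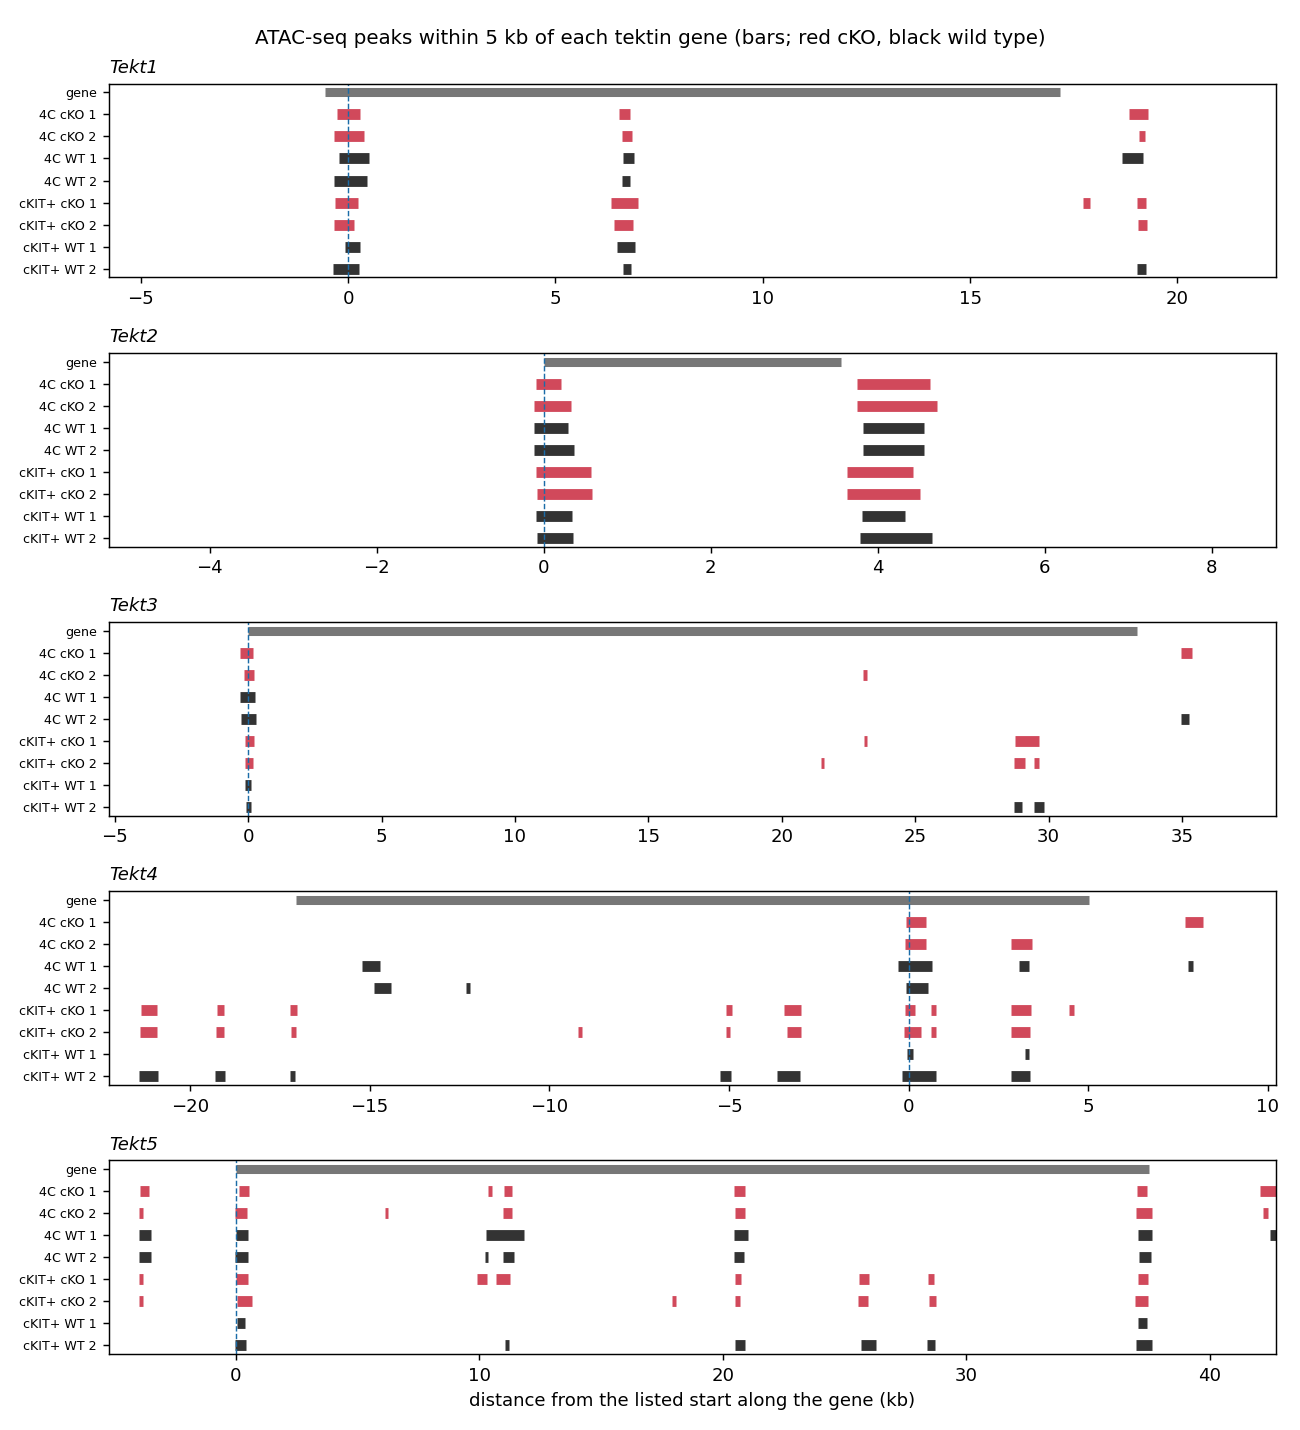
Peaks within 5 kb of each tektin gene by library, drawn by distance from the listed start along the gene (kb), with red bars for cKO, black bars for wild type, a grey bar for the gene and a dashed line at the start. Peaks line up at the start in all libraries for Tekt1 to Tekt4, and Tekt4 shows 5 further regions in 3 cKIT+ libraries each.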

How the data were processed

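Single-cell files give whole-number UMI counts per gene in each barcode as deposited. Per the file headers, the authors ran Cell Ranger, version 7.1.0 for replicate 1 and version 9.0.1 for replicate 2. The submitters' processing notes name mm10, and Seurat 4.1.0 without its use. ATAC peaks were called per library by the authors; the submitters' processing notes name cutadapt, Bowtie2 and MACS2, whose versions are not given in the sources used here. A deposited peak carries a score, a fold ratio over local background and −log10 p and −log10 q values. Replicate 1 held 63605819 UMIs in 987771 barcodes and replicate 2 held 115830234 UMIs in 17744 barcodes.

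Barcodes needed 1000 UMIs, 500 genes and a mitochondrial share of no more than 10%, which 8098 and 14262 met; scanpy 1.11.5 (its Scrublet, 0.8% doublets expected per 1000 cells) then removed 706 and 1377 doublets. Cells were staged by marker UMIs per 10000; 496 and 974 stayed unstaged, and Sertoli cells (28 in replicate 1) fell under the 50 needed for a sum. Sums per sample and class were fitted with edgeR 4.0.16 (TMM, filterByExpr, sample as block because stages of a sample share a suspension, Benjamini-Hochberg over 20162 genes, threshold 0.05). The correlation of replicate 1 deviations between stages had a median of 0.12 and a lowest value of -0.01. On simulated data for round over late pachytene cells (20162 genes), 97% of changes of 2 and 32% of changes of 1 (log2) were recovered, with 5.15% false calls. The simulation changed 200 genes in round spermatids only, as many up as down, and held all other means flat over the stages. In the data 28.8% of genes were called higher and 22.2% lower at this step. The simulated shares therefore do not give the power or the error of the real steps. ATAC covered bases were tested by exact permutation. Free RNA was read in 15453 barcodes of 10 to 100 UMIs in replicate 1. Intervals and floors of 3 counts cover counting error only. Python 3.11.15, scipy 1.17.1, R 4.3.3 and DESeq2 1.42.0 were used.

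The tektins, the gene lists and the stage markers were chosen with earlier results of these data known. Named inner protein genes were, at the step with most called, the 5 largest and 3 smallest changes among those called and all called against the majority. Named similar genes were the 5 with the highest Pearson r among genes of at least 20 CPM on average. Alternatives were other scalings, the DESeq2 test, filters, cuts, doublets kept, no block, samples left out, and other peak windows and thresholds.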

Additional observations from a re-analysis of the deposited data

How the results depend on the processing

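Alternative values were counted for the tektin changes called in the main fit and for a few picked others that were not called. Of these values, 351 kept direction and side of the threshold, 14 passed it anew, 5 lost it and 8 changed sign. The cause was not tested, and the remaining fitted tektin changes were not counted. The count of tektins that rose into the early pachytene range was 2 with DESeq2 size factors, the DESeq2 Wald test or library size only. Into round spermatids 5 rose with DESeq2 size factors or with the late spermatocyte cut halved. The Tekt5 change at late pachytene to dividing turned positive, to 0.48 with DESeq2 size factors, 0.53 with the Wald test and 0.018 with doublets kept, and that at late elongating to 0.19 with size factors, 0.19 with the Wald test, 0.13 with doublets kept and 0.58 with protamine cuts halved. Without the replicate block 1 tektin fell in early elongating spermatids, Tekt5 at late pachytene to dividing was at 0.053, and of the inner protein genes 9 rose into leptotene or zygotene, 1 rose and 9 fell into late elongating spermatids. In 1 sample alone, 5 changes had the opposite sign, none of them called: Tekt3 (-0.10) and Tekt5 (0.09) into leptotene or zygotene and Tekt5 (-0.89) into the early pachytene range in replicate 1, and Tekt5 at pachytene (-0.48) and at late pachytene to dividing (0.37) in replicate 2. Subtracting free RNA moved 32 of 50 tektin levels beyond their counting interval, and the onset of Tekt2 to late pachytene to dividing.

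Counts of inner protein genes moved by over 1.5 times in 32 of 188 values. Into leptotene or zygotene 8 rose and 2 fell with DESeq2 size factors, the Wald test or library size only. Into the early pachytene range 1 fell with size factors or the Wald test. At pachytene 8 rose with the Wald test, and 5 fell with size factors, 4 with the Wald test, 8 with library size only and 2 with the late cut halved. At late pachytene to dividing 22 rose with size factors and 21 with the Wald test. In round spermatids 3 fell with doublets kept, the late cut doubled or library size only, and 2 with the early pachytene range left out or the protamine cuts doubled or halved. In late elongating spermatids 5 rose with size factors or protamine cuts halved and 1 with no filter, protamine cuts doubled or library size only; 11 fell with size factors and 10 with the Wald test. With a minimum of 2000 UMIs 1 was lower in germ stages.

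For covered bases the replicate block changes only p, and 2 pairs allow no p below 0.5 and 4 pairs none below 0.125. In 4C-sorted cells, cKO minus wild type turned at Tekt1 to 2 with −log10 q of at least 5, to 35.5 with 10 kb and to 146.5 with equal lists, and at Tekt2 to -49.5 in start windows. In cKIT+ cells it turned in start windows at Tekt2 to -0.5 and at Tekt5 to -25.5, and with equal lists at Tekt3 to -80 and at Tekt5 to -115. For 4C-sorted minus cKIT+ it turned at Tekt1 to -48.25 with 1 kb and -73.25 with 10 kb, at Tekt2 to 46 with 10 kb and 38.5 with equal lists, at Tekt3 to 107.75 in start windows (exact permutation p = 0.0286) and 200.75 with equal lists, and at Tekt4 to 7.75 in start windows and 153.5 with equal lists; Tekt5 reached 1836. With single libraries left out, the 4C-sorted minus cKIT+ range was -52.75 to 216.58 at Tekt1, -187.08 to 4.25 at Tekt2 and -369.25 to 7.08 at Tekt3; cKO minus wild type ranged from -299.5 to 240.5 at Tekt1, -211.5 to 152.5 at Tekt3 and -1260.5 to 7.5 at Tekt5 in 4C-sorted cells, and from -740 to 2255 at Tekt4 in cKIT+ cells.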
